A study of Mus musculus with 8 samples.

Results

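The miR-10, miR-99/100 and miR-125 families were followed through small RNA libraries of mouse sperm. They comprise 7 miRNAs, mmu-mir-10a, mmu-mir-10b, mmu-mir-99a, mmu-mir-99b, mmu-mir-100, mmu-mir-125a and mmu-mir-125b, out of 752 miRNAs to which at least 1 read was assigned by name. Members were taken by name: a sequence counted for a miRNA if its annotation named only that miRNA, with gene copies such as mir-125b-1 and mir-125b-2 joined. Altogether 364 of the 12695 distinct miRNA sequences in the 8 libraries belonged to the families, with 1212572 reads, and 0 of them also named a miRNA outside the families. Only 16 reads named both miR-99a and miR-100, and these were counted for neither. Each of the 7 passed the minimum of 50 counts in at least 4 libraries, as did 247 of the 752.

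Mature sperm came from the caudae epididymides of activated and control mice, giving 4 libraries per group. The study's methods call the libraries of a group biological replicates, and the labels do not name the mouse behind each. AgRP neurons are hypothalamic cells that drive feeding, and the design asks whether exciting them alters the small RNA that sperm carry. Activated mice were Agrp Cre/+ and control mice Agrp +/+, and both received AAV-hM3Dq-mCherry in the arcuate nucleus of the hypothalamus at 8 weeks of age. The virus holds an excitatory receptor for the drug clozapine-N-oxide (CNO), under the pan-neuronal hSyn promoter and switched on only by Cre. Both groups were given CNO at 1 mg/kg after 1 h without food and were killed 4 h later, so the groups differ in the Cre allele and share virus, drug and fasting. The Cre allele itself and neuronal activation cannot be told apart here.

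The families belong to an old group of miRNAs that resemble each other around the seed, bases 2 to 8, by which a miRNA recognises its targets. miR-10a and miR-10b lie inside Hox gene clusters and are known to act on Hox transcripts. The miR-99/100 family is known for repressing mTOR and the IGF1 receptor. The miR-125 family is related to the worm timing gene lin-4, and its precursors sit beside those of miR-99/100 and let-7 in conserved clusters.

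The mature sequences of the 5′ arm, which supplied nearly all reads, are given because the seeds define the families. They are from RefSeq (GRCm38.p6), with the seed in capitals:

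mmu-miR-10a-5p: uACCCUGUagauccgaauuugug

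mmu-miR-10b-5p: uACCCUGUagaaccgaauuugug

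mmu-miR-99a-5p: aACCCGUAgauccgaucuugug

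mmu-miR-99b-5p: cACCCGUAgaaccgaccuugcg

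mmu-miR-100-5p: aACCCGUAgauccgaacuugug

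mmu-miR-125a-5p: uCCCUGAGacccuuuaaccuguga

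mmu-miR-125b-5p: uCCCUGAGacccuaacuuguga

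Within the miR-10 family the 2 mature sequences differ by 1 substitution, U12A from miR-10a to miR-10b, with positions counted from 1 at the 5′ end. miR-99a differs from miR-100 only by U16A, and from miR-99b by 4 substitutions. miR-125a and miR-125b agree at 15 of the 22 positions compared. The seed of miR-10a and miR-10b occurred in no other mouse miRNA of the RefSeq table, nor did that of miR-99a, miR-99b and miR-100. The miR-125 seed was shared with miR-351-5p, miR-6367 and miR-6394, which are not members. Because reads were matched with 0 mismatches, a full-length read of miR-10a could not be counted as miR-10b.

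In the GRCm38 genome, the Mir10a precursor is at chr11:96317165-96317274, 993 bases from Hoxb4 and in no other annotated gene. Mir10b is at chr2:74726070-74726137 and lies in introns of Hoxd3 and Hoxd4. Mir99a (chr16:77598936-77599000) and Mir125b-2 (chr16:77646273-77646343) are intronic to the noncoding gene Mir99ahg (Mir99a also lies antisense in an intron of Gm11146), with let-7c-1 between them at chr16:77599657-77599750. Mir100 (chr9:41531425-41531504), let-7a-2 (chr9:41536716-41536811) and Mir125b-1 (chr9:41581926-41582002) form the matching cluster in introns of the noncoding gene 3110039I08Rik, beside further annotated noncoding transcripts. The last cluster holds Mir99b (chr17:17830188-17830257), let-7e (chr17:17830352-17830444) and Mir125a (chr17:17830812-17830879), all inside Spaca6, where Mir99b is intronic and Mir125a overlaps an annotated exon.

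Libraries held 9297271 to 23123740 reads, of which 17.8% to 47.1% were annotated to miRNAs. Levels are given as RPM, the reads of a miRNA per 1000000 reads of the library. They count amplified reads, not molecules, and any difference in how well each miRNA is captured was not measured, so levels of different miRNAs are compared as read levels only. In bulk RNA, fewer cells of a type and less RNA per cell cannot be told apart. Mitochondrial rRNA divided the libraries into a set with 1.80% to 2.24% of reads (activated replicates 1 and 4, control replicates 2 and 4) and a set with 7.11% to 8.35%. Control replicate 4 also stood apart from all 7 other libraries in the miRNAs described here, and comparisons that turn on it are therefore given with and without it.

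miR-10a was the most abundant member. Its level was 2339, 1539, 1190 and 1353 RPM in activated replicates 1 to 4 and 1690, 1593, 3071 and 19865 RPM in control replicates 1 to 4. Activated replicate 1 lay within the range of the other 3 controls and the other 3 activated libraries lay below it. Control replicate 4 was 6.47 times the highest of the other 7 libraries. The group means were 1605 ± 509 RPM (SD, n = 4) and 6555 ± 8899 RPM (SD, n = 4), a ratio of 0.245 that did not exceed the spread between replicates (two-sided exact permutation test, p = 0.171). Leaving out control replicate 4 brought the ratio to 0.758 (exact permutation p = 0.4).

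Its close relative miR-10b was read at 1791, 1059, 751 and 965 RPM in activated and 1104, 1128, 1977 and 20269 RPM in control replicates. Again the groups overlapped apart from control replicate 4, in which miR-10b reached 10.3 times the next highest library. The ratio of means was 0.187 (exact permutation p = 0.171), and 0.813 without that library (p = 0.457 in the exact permutation test).

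For miR-99a, activated libraries gave 768, 570, 431 and 475 RPM and controls 592, 568, 951 and 9513 RPM. miR-100, which differs from it by 1 base, was much less abundant, at 73.9, 66.0, 54.8 and 65.4 RPM in activated and 60.7, 58.9, 95.2 and 822 RPM in control libraries. The third relative, miR-99b, was at 60.1, 41.9, 65.7 and 40.7 RPM in activated and 54.5, 36.1, 105 and 620 RPM in control libraries. In all 3 the groups overlapped and control replicate 4 was the highest library, by 10.01 times over the next for miR-99a, 8.63 times for miR-100 and 5.92 times for miR-99b. Activated-to-control ratios were 0.193, 0.251 and 0.256 (exact permutation p = 0.2, 0.371 and 0.343). They were 0.797, 0.908 and 0.8002 without control replicate 4, with exact permutation p-values of 0.4, 0.714 and 0.657.

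miR-125b was at 286, 226, 290 and 259 RPM in activated and 330, 229, 524 and 3804 RPM in control libraries. miR-125a was the least abundant member by its median, at 45.2, 35.8, 49.2 and 32.9 RPM in activated and 60.0, 38.8, 98.7 and 1054 RPM in control libraries. In both, control replicate 2 lay among the activated libraries and the other 3 controls lay above all of them. The ratios were 0.217 for miR-125b and 0.1303 for miR-125a (exact permutation p = 0.143 and 0.0857). Without control replicate 4 they were 0.735 and 0.619 (exact permutation p = 0.229 and 0.114), the latter the lowest ratio of the 7 members on that basis.

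By this test 0 of the 7 members passed a p of 0.05, against 1.21% of the 247 miRNAs tested. The smallest p that 4 against 4 libraries allow is 0.0286, and adjusted over the 247 miRNAs the p of every member was 0.919.

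**Figure D1:**
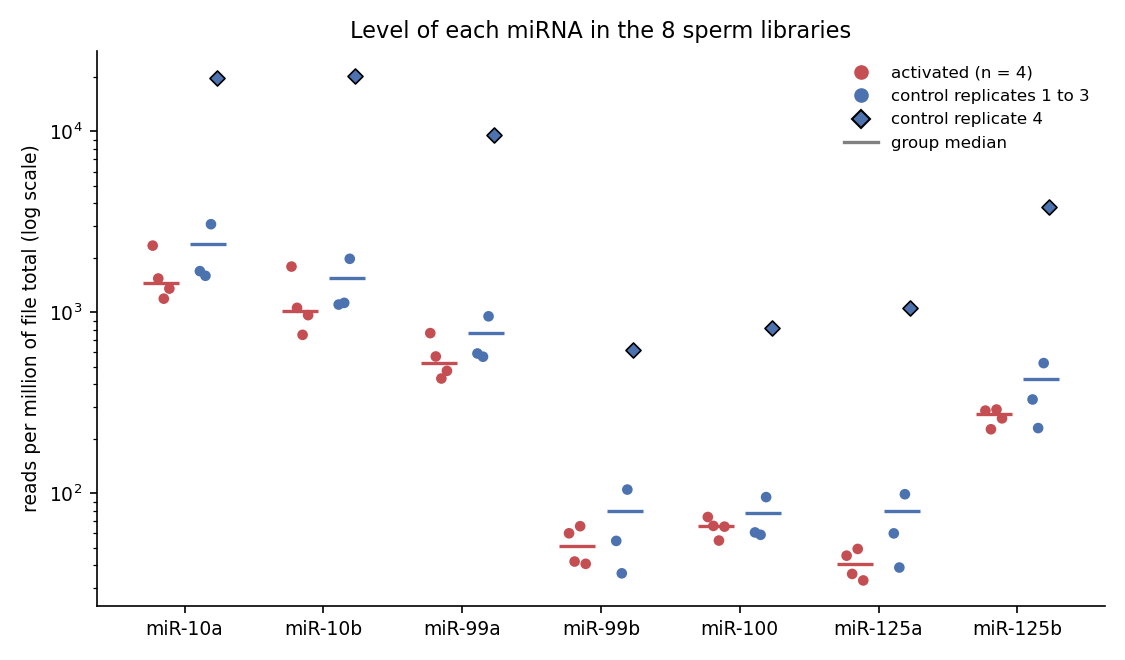
Level of each of the 7 miRNAs in RPM (log scale), with 1 point per library and a line at each group's median. The control replicate 4 point (diamond) is the highest in all 7, while the other 7 libraries overlap between groups.

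Ordered by median over the 8 libraries, miR-10a (1641 RPM) led miR-10b (1116 RPM), miR-99a (581 RPM), miR-125b (288 RPM), miR-100 (65.7 RPM), miR-99b (57.3 RPM) and miR-125a (47.2 RPM). miR-10a exceeded miR-10b in 7 of 8 libraries, control replicate 4 being the exception. The order of miR-10b, miR-99a, miR-125b and miR-100 was the same in 8 of 8. The 3 least abundant members were not separated beyond their spread, since miR-100 exceeded miR-99b in 6 libraries and miR-99b exceeded miR-125a in 5. Among all 247 miRNAs tested, miR-10a ranked between 19 and 28 in 6 libraries, at 8 in control replicate 3 and at 5 in control replicate 4. miR-125a moved further, from between 92 and 144 in the other libraries to 52 in control replicate 4.

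The fit across all 587 RNA species gave the same picture. With edgeR's quasi-likelihood test, 0 of the 7 members were called at a Benjamini-Hochberg adjusted p of 0.05 with a log2 fold change beyond 1, against 0% of all species. All 7 were lower in activated libraries, and 6 had an unadjusted p under 0.05, against 6.47% of species lower at that level. That count was 0 with a block for replicate number or with the mitochondrial rRNA set as covariate. It was 1 or 2 without any 1 activated library, and 6 or 7 without control replicate 1, 2 or 3. In the fit with all libraries and neither term, the members' median log2 fold change was -2.27, against -0.07 over all species. The difference was -3.01 ± 1.08 (SE) for miR-125a, -2.55 ± 1.01 for miR-10b, -2.48 ± 0.97 for miR-99a and -2.27 ± 0.90 for miR-125b. It was -2.13 ± 0.86 for miR-10a, -2.08 ± 0.90 for miR-100 and -2.02 ± 0.89 for miR-99b, and the edgeR adjusted p of each member was between 0.554 and 0.559.

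These fold changes rested on 1 library. Without control replicate 4, the median of the members was -0.37 (all species 0.01) and 0 of 7 had an unadjusted p under 0.05, against 9.76% of species lower. The values then ran from -0.69 ± 0.38 (SE) for miR-125a to -0.16 ± 0.26 for miR-100, with edgeR adjusted p-values from 0.428 to 0.689. Every member remained lower in activated libraries, and control replicate 3 was then the highest library for each. Control replicate 3 belongs to the set with more mitochondrial rRNA. Within that set of 2 activated and 2 control libraries the ratios were 0.535 to 0.774. Within the other set they were 0.0715 to 0.172 with control replicate 4 and 1.01 to 1.40 without it, when 1 control library is left. The direction without control replicate 4 thus held in only 1 of the sets.

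**Figure D2:**
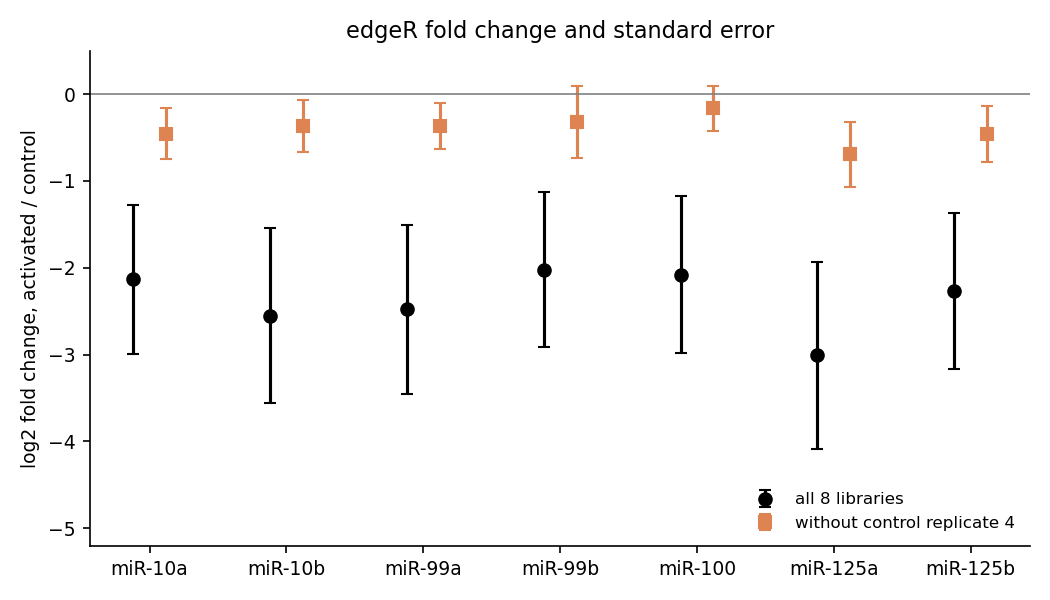
Log2 fold change of activated over control from edgeR, for all 8 libraries (circles) and without control replicate 4 (squares). Bars are standard errors derived from the F statistic of the test. All 7 values lie between -3.01 and -2.02 with all libraries and between -0.69 and -0.16 without control replicate 4.

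In control replicate 4 the 7 members together made up 11.9% of miRNA reads, against 0.853% to 3.82% in the other libraries. Their level there was 11.4 times (miR-99b) to 23.3 times (miR-125a) the median of the other 7 libraries, with a median of 13.3. Over all 247 miRNAs tested this fold had a median of 1.27. All 7 members were above every other library, as were 39.7% of all miRNAs tested, and all 7 exceeded 5 times the median of the others, as did 18.6%.

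Other cell types' miRNAs moved with the members in this library. All 7 epithelial miRNAs of the list (miR-200a, miR-200b, miR-200c, miR-141, miR-429, miR-203 and miR-205) were detected in every library and highest in control replicate 4. Their sum was 1085 to 3476 RPM in activated libraries, 1364 to 2733 RPM in control replicates 1 to 3 and 19420 RPM in control replicate 4. The 5 muscle and vessel miRNAs (miR-1a, miR-133a, miR-143, miR-145a and miR-126a) summed to 180 to 524 RPM in activated libraries, 255 to 445 RPM in control replicates 1 to 3 and 36472 RPM in control replicate 4. miR-143 and miR-145a, typical of smooth muscle, were at 17171 and 17715 RPM there, against 83.7 to 332 and 52.8 to 123 RPM elsewhere. Their part in the level of the members was not tested.

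Markers of the labelled cell type were present in all libraries. The 11 testis and sperm miRNAs, among them miR-34c and miR-741, were all detected and summed to 25746 to 42585 RPM in activated and 20844 to 36234 RPM in control libraries, with control replicate 4 at 30513 RPM. In 0 of the 11 was control replicate 4 the highest library. Leukocyte miRNAs (5 of 5 detected) summed to 432 to 979 RPM in activated and 394 to 879 RPM in control libraries. Erythrocyte miRNAs (4 of 4 detected, with miR-486b at 0 in 4 libraries and miR-486a at 0 in 1) summed to 83.5 to 298 RPM in activated and 235 to 976 RPM in control libraries. Control replicate 3, the library with the highest member levels after control replicate 4, had the highest erythrocyte sum. Whether blood RNA bears on the lower levels in activated libraries was not tested.

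**Figure D3:**
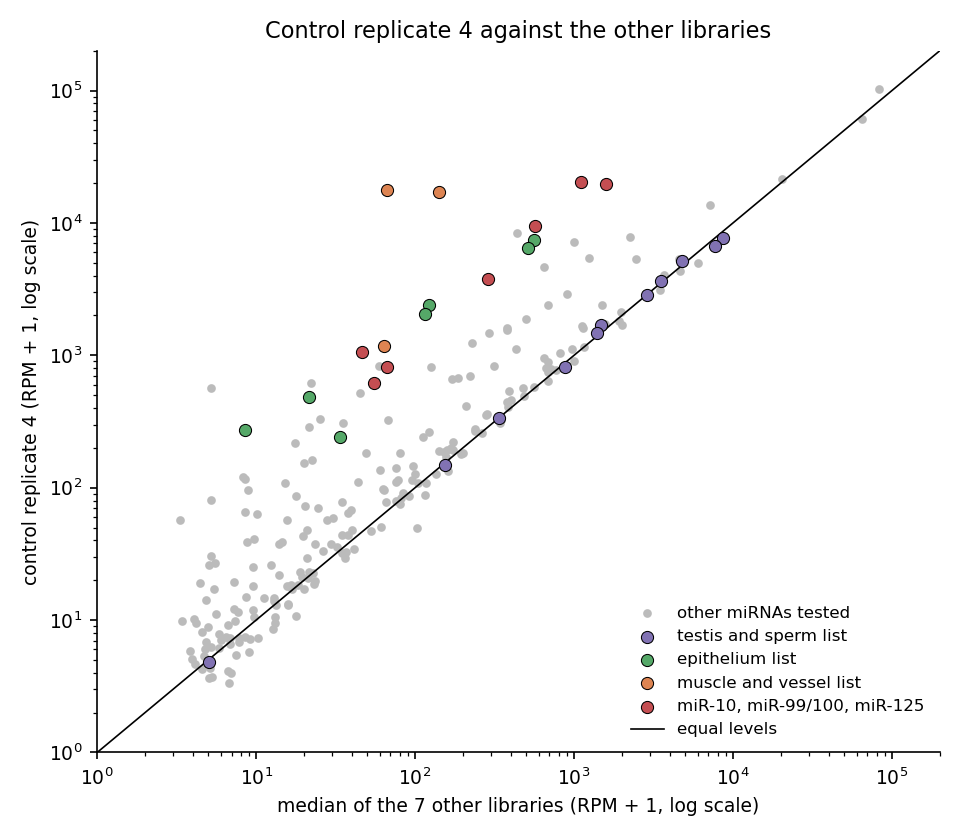
Level of each of 247 miRNAs in control replicate 4 against the median of the 7 other libraries (RPM + 1, both axes log). The 7 members lie 11.4 to 23.3 times above the median of the other libraries, near the epithelial miRNAs, miR-143 and miR-145a lie further from the line of equal levels, and the testis and sperm miRNAs lie close to it.

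The excess in control replicate 4 was not equal among members. miR-10b per miR-10a was 0.631 to 0.766 in the other 7 libraries and 1.02 in control replicate 4, where miR-10b held 50.5% of the miR-10 reads (95% Wilson interval 50.4% to 50.6%, counting error only). miR-125a held 21.7% of the miR-125 reads there (interval 21.40% to 22.01%) against 11.3% to 15.9% in the others. miR-99a held 86.8% of its family's reads, just above the 78.1% to 85.7% of the other libraries.

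Between groups, 1 share of a seed group differed, that of miR-125a. It held 13.6%, 13.7%, 14.5% and 11.3% of miR-125 reads in activated libraries and 15.4%, 14.5%, 15.9% and 21.7% in controls (exact permutation p = 0.0286, the smallest possible, among 5 shares compared). The separation rested on activated replicate 3 and control replicate 2, whose shares differed by less than their counting intervals. The difference lost that p without control replicate 4 (exact permutation p = 0.0571). It also did so, though the groups still did not overlap, without any 1 of the activated libraries (p = 0.0571 to 0.114, exact permutation). With reads of 20 to 24 nt only, the exact permutation p was 0.0571 too. Leaving out 1 library, the difference lay between -4.38 and -1.98 percentage points, against -3.59 with all. miR-10a held 58.9% ± 1.95 (SD, n = 4) of miR-10 reads in activated and 57.3% ± 5.32 (SD, n = 4) in control libraries, a difference within the spread (exact permutation p = 0.771) that changed sign without control replicate 4.

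The neighbours of the members in the genome were read from the same libraries. let-7c, counted with gene copies joined and with its copy let-7c-1 beside miR-99a, was at 300 to 1058 RPM in the other 7 libraries and 8466 RPM in control replicate 4. let-7e, encoded between miR-99b and miR-125a, was at 11.6 to 44.2 RPM and 613 RPM. For let-7a, whose reads come from several gene copies of which only let-7a-2 lies beside miR-100, the values were 4991 to 10542 RPM and 13646 RPM. All 3 were thus highest in control replicate 4, let-7a by the least. Their log2 fold changes between groups were -2.63 ± 1.02 (SE), -3.14 ± 1.20 and -0.02 ± 0.35 (edgeR, adjusted p = 0.554, 0.554 and 0.983). Without control replicate 4 they were -0.53, -0.43 and 0.34 (edgeR, adjusted p = 0.443, 0.551 and 0.435).

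The other miRNAs of the Hox clusters were also highest in control replicate 4, by a larger fold over the median of the other 7 libraries (25.9 for miR-615, 32.7 for miR-196a and 134.6 for miR-196b) than miR-10a (12.5) and miR-10b (18.4). miR-196b was at 2.29 to 11.5 RPM in 7 libraries and 566 RPM in control replicate 4. miR-196a was at 0.213 to 3.01 RPM and 60.8 RPM, and miR-615 at 0.114 to 2.26 RPM and 18.7 RPM. Of these only miR-196b passed the count minimum, and the folds of miR-196a and miR-615 rest on few reads in the other 7 libraries. The log2 fold change of miR-196b was -5.54 ± 1.77 (SE) with all libraries and -1.02 ± 0.49 without control replicate 4 (edgeR, adjusted p = 0.554 and 0.397).

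By Pearson's r on log2(RPM + 1) over the 8 libraries, the miRNAs most like the miR-10 sum were miR-200c (r = 0.989), let-7c (0.984) and let-7e (0.982). The miR-99/100 sum was closest to miR-200c (0.988), miR-196b (0.987) and let-7e (0.985). For the miR-125 sum they were miR-196b (0.997), miR-127 (0.988) and miR-345 (0.984). Within each library both values of a pair share its depth, and 1 point of the 8, control replicate 4, sets most of the range. Over the other 7 libraries r for these pairs was 0.777 to 0.971. Among the members, miR-10a tracked miR-10b (r = 0.980) and miR-99a (0.996) over these 7 libraries, and miR-125a tracked miR-125b (0.960) and miR-99b (0.907). miR-10b and miR-99b were the least alike (0.534).

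Nearly all reads of the members came from the 5′ arm of the precursor. The 3′ arm supplied at most 0.644% of the reads of miR-10a and miR-10b, at most 0.0224% of those of miR-99a and at most 2.83% of those of miR-125a in any library. It was not detected for miR-100 in 6 of 8 libraries, where 0 of 615 to 1362 reads allow a share of up to 0.488% to 0.220%. Of the 7 members, 0 differed between groups in the 3′ arm share, against 1.89% of the 159 miRNAs compared. The lowest p was that of miR-99b, at 0.112% ± 0.223 (SD, n = 4) in activated and 0.609% ± 0.400 (SD, n = 4) in control libraries (exact permutation p = 0.0571), from 0 to 9 reads per library outside control replicate 4, and without that library its exact permutation p was 0.171.

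The 5′ end sets the seed, and here miR-10a and miR-10b differed from the other members. The reads are given as sequenced, with bases 2 to 8 of each read in capitals. The most abundant miR-10a read had the annotated start and was 1 base shorter at the 3′ end than the RefSeq sequence. The next most abundant began 1 base later, which moves the seed. The matching pair is shown for miR-10b:

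miR-10a, annotated start: tACCCTGTagatccgaatttgt

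miR-10a, start 1 base later: aCCCTGTAgatccgaatttgt

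miR-10b, annotated start: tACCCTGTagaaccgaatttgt

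miR-10b, start 1 base later: aCCCTGTAgaaccgaatttgt

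Reads that began 1 base late made up 27.0% to 30.6% of miR-10a 5′ arm reads and 11.3% to 14.3% of those of miR-10b. The ranges over the 8 libraries did not overlap, although the 2 mature sequences share their first 11 bases. The share was 2.76% to 5.13% for miR-125b, at most 2.35% for miR-99b, 1.72% for miR-100, 0.561% for miR-125a and 0.110% for miR-99a. The shifted seed of miR-10, CCCUGUA, was the seed of no mature miRNA in the RefSeq table. By the median percent of reads at the annotated 5′ end, only 5.96% of the 151 miRNAs compared were below miR-10a and 15.9% below miR-10b, while the median miRNA was at 99.1%.

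These shares changed little between libraries. At the annotated 5′ end were 71.4% ± 0.702 (SD, n = 4) of miR-10a reads in activated and 69.9% ± 1.25 (SD, n = 4) in control libraries. For miR-10b the values were 88.0% ± 0.401 (SD, n = 4) and 86.7% ± 0.992 (SD, n = 4). Both differences were in the same direction, but the groups overlapped (exact permutation p = 0.0857 for each). Without control replicate 4 the exact permutation p was 0.0571 for miR-10a and 0.0857 for miR-10b. The share of miR-10a reads that began 1 base late was 28.0%, 27.0%, 28.5% and 27.8% in activated and 29.8%, 29.1%, 30.6% and 27.7% in control libraries. Here control replicate 4 was the only control among the activated libraries, and the exact permutation p was 0.114 with it and 0.0286 without it. In the percent at the annotated 5′ end 0 of the 7 members passed a p of 0.05, against 3.97% of the 151 miRNAs. Of the 28 shares of 5′ positions compared over the members (before, at, 1 base after or further after the annotated end), 1 did so. Before the annotated end, miR-99b and miR-125a had 0 reads in all libraries. miR-100 had such reads only in control replicate 4 and miR-125b only in control replicate 2, so none of these shares could pass. The shares of a member also depend on each other, and they were not all compared over all miRNAs. Reads of miR-99a that began before the annotated end made up 0.576% ± 0.0197 (SD, n = 4) in activated and 0.428% ± 0.0295 (SD, n = 4) in control libraries, without overlap (exact permutation p = 0.0286 with and without control replicate 4). This share rests on 26 to 63 reads per library outside control replicate 4. Control replicate 4, at 71.4% and 87.1%, lay within the range of the other libraries for miR-10a and for miR-10b.

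**Figure D4:**
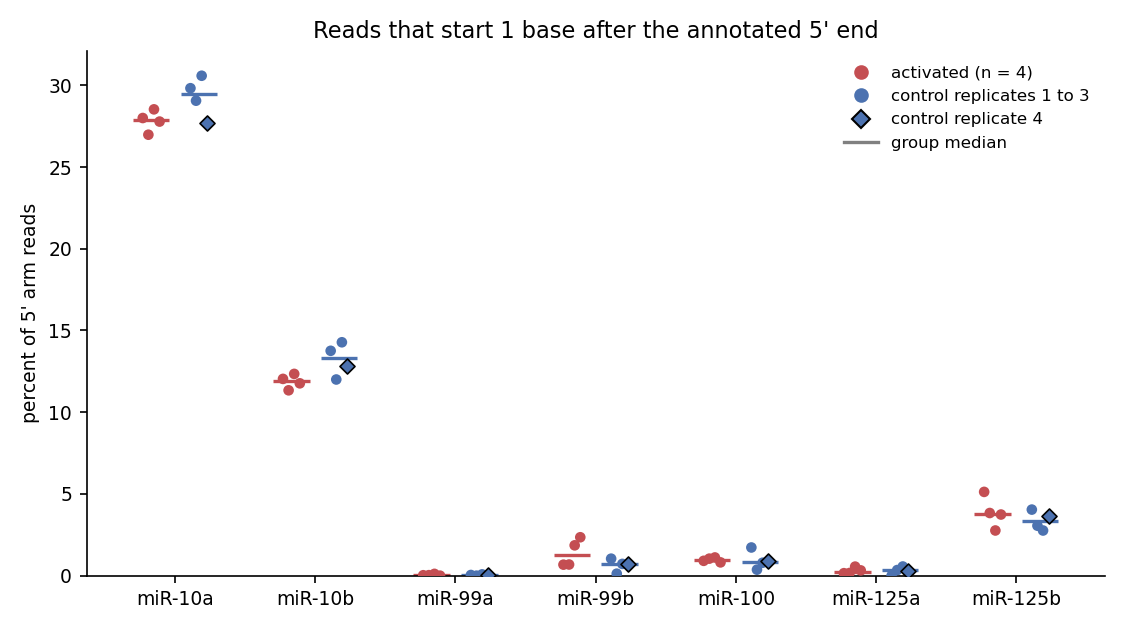
Percent of 5′ arm reads that start 1 base after the annotated 5′ end, per library, with a line at each group's median. miR-10a (27.0% to 30.6%) and miR-10b (11.3% to 14.3%) stand above the other members in all libraries, control replicate 4 included.

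At the 3′ end, the reads of miR-99a with the annotated 5′ end fell into a 21 nt form, which lacks the last base of the RefSeq sequence, and a 22 nt form:

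miR-99a, 21 nt: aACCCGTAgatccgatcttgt

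miR-99a, 22 nt: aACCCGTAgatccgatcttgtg

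The 22 nt form made up 31.1%, 32.8%, 32.9% and 32.1% of these reads in activated libraries and 37.3%, 34.8%, 35.8% and 35.9% in control libraries. All 4 controls lay above all 4 activated libraries, and control replicate 4 was not apart from the other controls. Length shares were compared at each length from 19 to 25 nt for each of the 7 members, without adjustment. Only the 22 nt and 21 nt shares of miR-99a reached an exact permutation p of 0.0286. These shares largely mirror each other, and the 22 nt share was chosen after its values were seen. How many of all miRNAs would separate the groups in a length share was not examined, so the separation has no background to be set against. The mean length of the miR-99a reads was 21.27 ± 0.0161 nt (SD, n = 4) in activated and 21.31 ± 0.0157 nt (SD, n = 4) in control libraries (exact permutation p = 0.0286). For miR-100 it was 21.17 ± 0.0276 nt (SD, n = 4) and 21.29 ± 0.0586 nt (SD, n = 4), also without overlap (exact permutation p = 0.0286). Mean length thus separated the groups for 2 of the 7 members, against 2.03% of the 148 miRNAs compared, which is 3 miRNAs in all. Adjusted over the 148, p was 0.983 for both, and the differences of 0.04 and 0.12 nt are small. Without control replicate 4 the groups still did not overlap for either, and the miR-99a difference had an exact permutation p of 0.0571 at nearly the same size (-0.0392 nt, from -0.0427 nt), while the p of miR-100 stayed at 0.0286. The p was also 0.0571 (exact permutation) for miR-99a without control replicate 1 and for miR-100 without activated replicate 1 or 2.

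Among 33 length shares of the members that reached 1% in some library, control replicate 4 was the highest or lowest library in 12. Activated replicate 4 was so in 11, with 4 to 10 for the others, so this count did not set control replicate 4 apart. In activated replicate 4, 57.6% of miR-125a reads with the annotated start were 22 nt long, against 43.4% to 50.5% elsewhere. Its 22 nt share of miR-99b (24.6%) and 23 nt share of miR-125a (15.9%) were the lowest. Of miR-99b reads with the annotated start, 52.7% were 22 nt long in control replicate 4, against 24.6% to 44.2% in the other libraries. Of miR-125b reads, 52.1% had the full 22 nt there, against 57.9% to 70.3%, and 38.3% were 1 base shorter, against 19.9% to 29.7%. For miR-100 the 22 nt share was 38.99% there, against 28.5% to 36.4%. For miR-125a the 23 nt share was 30.9% against 15.9% to 26.3%, and the 24 nt share 13.0% against 14.3% to 21.1%. Mean lengths of miR-125b were 21.58 ± 0.0214 nt (SD, n = 4) in activated and 21.49 ± 0.0741 nt (SD, n = 4) in control libraries, with overlap (exact permutation p = 0.0857).

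**Figure D5:**
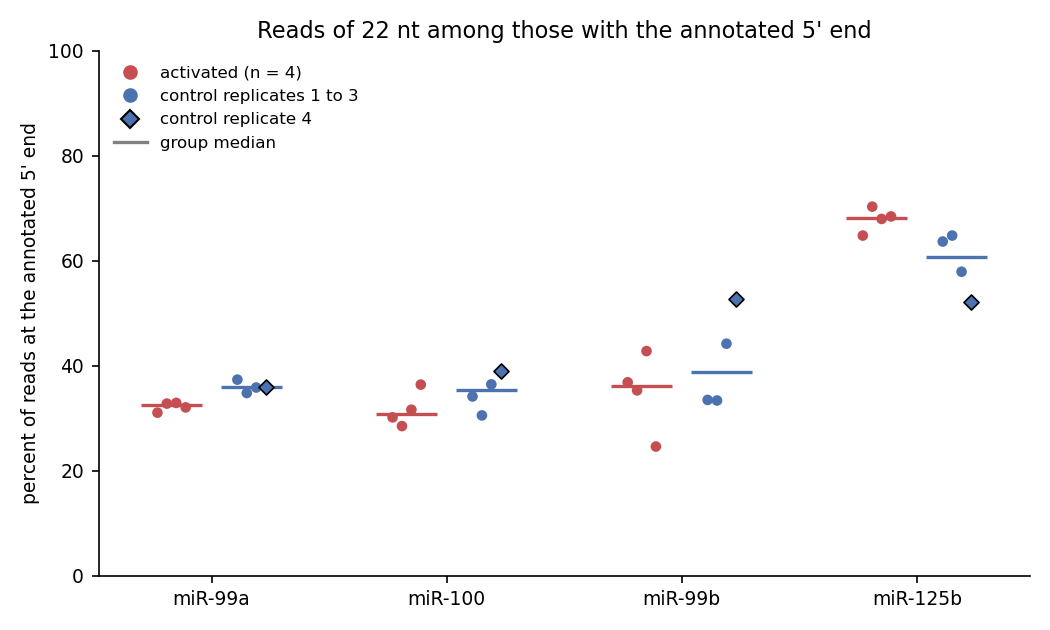
Percent of reads of 22 nt among those with the annotated 5′ end for 4 members, per library, with a line at each group's median. For miR-99a the activated libraries (31.1% to 32.9%) lie below all controls (34.8% to 37.3%). Control replicate 4 is the highest library for miR-99b and miR-100 and the lowest for miR-125b, and activated replicate 4 is the lowest for miR-99b.

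Individual sequences of the families were also tested among all 12077 fragments that passed the minimum. Of these, 41 belonged to the members, 13 to miR-10a, 10 to miR-10b, 5 to miR-99a, 4 each to miR-125a and miR-125b, 3 to miR-99b and 2 to miR-100. The edgeR fit called 0 of the 41, against 0.431% of all fragments. Of all fragments it called 52 higher and 0 lower in activated libraries. All 41 were lower in activated libraries, with a median log2 fold change of -2.56 against 0.08 over all fragments. All 41 were also highest in control replicate 4, which was not counted over all fragments. Being forms of the same miRNAs read in the same libraries, they are not independent of each other. Of the 41, 35 had an unadjusted edgeR p under 0.05, against 3.76% of fragments lower at that level. That count was 20, 8, 9 and 5 without activated replicates 1, 2, 3 and 4, and 41, 37 and 37 without control replicates 1, 2 and 3. It was 24 with the mitochondrial rRNA set as covariate and 0 with a block for replicate number. The most negative fold changes were those of the 23 and 22 nt reads of miR-125a:

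miR-125a, 23 nt: tCCCTGAGaccctttaacctgtg

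miR-125a, 22 nt: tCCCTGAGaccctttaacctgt

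Their log2 fold changes were -3.65 ± 1.26 (SE) and -3.18 ± 1.12 (edgeR, adjusted p = 0.540 and 0.562). The 23 nt read was at 5.21 to 21.3 RPM in 7 libraries and 323 RPM in control replicate 4, and the 22 nt read at 16.8 to 47.3 RPM and 502 RPM. Without control replicate 4 the log2 values were -0.63 and -0.59 (edgeR, adjusted p = 0.959 for both). Of the 38 member fragments still tested, 0 then had an unadjusted p under 0.05, against 356 of all 11587 fragments lower at that level. The most abundant reads of miR-10a and miR-10b, with the annotated start, gave -2.25 ± 0.93 and -2.68 ± 1.08 with all libraries and -0.23 and -0.16 without control replicate 4 (edgeR, adjusted p = 0.648 and 0.642 with all libraries). Those with the highest mean for miR-99a, miR-99b, miR-100 and miR-125b lay between -2.69 and -2.12, and between -0.39 and -0.08 without that library (edgeR, adjusted p of 0.646 to 0.670 with all libraries). For miR-99b this was the 22 nt read, whose mean rests on control replicate 4, while the 21 nt read was higher in 6 of 8 libraries and by median (28.1 against 19.9 RPM). The 21 nt read of miR-99b had a log2 fold change of -1.80 ± 0.83 with all libraries (edgeR, adjusted p = 0.725) and -0.12 without control replicate 4.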

How the data were processed

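Small RNA of mature sperm was sequenced in 8 libraries, 4 activated and 4 control, and grouped by the deposited labels. The deposited tables give unnormalised counts per unique sequence (15 to 45 nt), made by the authors with SPORTS1.1 (Bowtie, mm10, 0 mismatches, miRBase). Reads had been trimmed and quality filtered, and duplicates were kept. Other deposited summary tables were not used. Between 9.53% and 23.7% of reads had no annotation. They stayed in library totals and in the fit over fragments. The members and lists were chosen with earlier results of these data known.

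Reads were summed by miRNA and divided by the library total (RPM). RNA species and fragments with at least 50 counts in at least 4 libraries were fitted with edgeR 4.0.16 (TMM, quasi-likelihood) in R 4.3.3, with DESeq2 1.42.0 and apeglm 1.24.0 as the alternative. Both were tested on simulated data. A feature was called past a log2 fold change of 1 at an adjusted p (Benjamini-Hochberg) below 0.05. Standard errors of edgeR fold changes were derived from the fold change and its quasi-likelihood F statistic. RPM, arm, end, length and family shares were compared by two-sided exact permutation over 70 assignments (35 without control replicate 4), whose smallest p is 0.0286. Reads were placed on 6 RefSeq hairpins, or by 12 matching bases of the mature sequence where the table held no hairpin (miR-99b and one copy of miR-125b). Correlations used log2(RPM + 1). Wilson intervals are at 95%, and 0 reads allow up to 3. Both cover counting error only. Loci are from GENCODE M21.

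Named sequences are the read of each member with the highest mean RPM, the 2 tested member reads with the most negative fold change (none was positive), the 3 miRNAs most like each family, the cluster partners and the other Hox cluster miRNAs. The late-starting reads of miR-10 and the 22 nt read of miR-99a were chosen after their values were seen. Alternatives were other size factors, count minimums, reads, denominators, a replicate block, the mitochondrial rRNA set as covariate and leaving out each library. Python 3.11.15, numpy 2.4.6, pandas 2.3.3 and matplotlib 3.10.9 were used.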

Additional observations from a re-analysis of the deposited data

Results flagged for a closer look

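Looking for a library far from the rest of its group of 4 by Dixon's criterion, 12 of 70 group and measure combinations had one, where chance gives about 1 in 20, and 8 of the 12 were control replicate 4. Control replicate 4 was apart in the level of all 7 members, with 19865 RPM of miR-10a, 20269 RPM of miR-10b, 9513 RPM of miR-99a, 620 RPM of miR-99b, 822 RPM of miR-100, 1054 RPM of miR-125a and 3804 RPM of miR-125b. Because the 7 levels come from 1 library, these are not independent of each other. In the 3′ arm share of miR-100, control replicate 4 was apart at 0.0679% (8 of 11787 reads) from controls with 0 reads, and activated replicate 2 at 0.173% (2 of 1154 reads) from activated libraries with 0 reads. The 3′ arm share of miR-99b in activated replicate 1 was 0.447% (4 of 895 reads), with 0 in the other activated libraries. All 3 rest on a handful of reads. For miR-99b the share of the miR-99/100 reads was 11.9% in activated replicate 3 (95% Wilson interval 11.2% to 12.6%), outside the 6.18% to 7.01% of the other activated libraries. At the annotated 5′ end were 99.22% of miR-99a reads in control replicate 3 (interval 99.0% to 99.4%), the lowest of the controls.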

How the results depend on the processing

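In the fit over RNA species 0 of 7 members were called in each of 20 alternatives, and all members stayed lower in activated libraries, with log2 fold changes from -3.38 to -0.05, the latter from the shrunken DESeq2 estimates. DESeq2 gave no p for 6 of the 7. Over the edgeR fits the adjusted p of a member lay between 0.292 and 0.823. The labels do not say whether equal replicate numbers pair the libraries. Same-numbered libraries correlated at -0.51 to 0.53 and 2 of 8 correlated best with their own number, which cannot settle it. With a replicate block 0 members and 0 member fragments were called, with a median log2 fold change of -1.01 for the members. Member fragments called numbered 0 in 17 of 18 alternatives and 47 of 155 with a minimum of 1 count in 4 libraries. Over all 387985 fragments that fit called 1059 lower and 1744 higher in activated libraries. All 47 were lower in activated libraries and highest in control replicate 4, the latter not counted over all fragments. With that minimum but without control replicate 4, an alternative chosen after seeing the data, 0 of 136 were called. Without that library 572 of all 337233 fragments were called lower and 1263 higher. RPM ratios kept their direction under other denominators and read lengths and without any 1 library. They went over 1 only within the set of low mitochondrial rRNA without control replicate 4 (chosen after seeing the data), at 1.16 for miR-10a, 1.22 for miR-10b, 1.09 for miR-99a, 1.40 for miR-99b, 1.18 for miR-100, 1.01 for miR-125a and 1.19 for miR-125b, and the cause was not tested. Leaving out 1 library gave 0.101 to 0.619 for miR-125a and 0.171 to 0.735 for miR-125b, and without control replicate 2 the exact p of both was 0.0286. The exact permutation p also came to 0.0286 for the 5′ end percent of miR-10b and the mean length of miR-125b without control replicate 2, for the 5′ end percent of miR-99a without control replicate 3 or with reads of 20 to 24 nt only, for the share of miR-10a reads starting 1 base late without control replicate 4, and for the family share of miR-100 without activated replicate 1. Uncalled differences that changed sign (activated minus control, leaving out 1 library) were the 3′ arm percent of miR-10a (-0.00978 to 0.0678), miR-10b (-0.0569 to 0.0533), miR-100 (-0.0170 to 0.0433) and miR-125b (-0.414 to 0.128), the percent at the annotated 5′ end of miR-100 (-0.357 to 0.0704) and miR-125a (-0.0568 to 0.387), the mean length in nt of miR-10a (-0.00611 to 0.0137) and miR-10b (-0.0108 to 0.00372), and the family share of miR-10a (-1.07 to 2.71) and miR-99b (-0.360 to 1.68). With reads of 20 to 24 nt only, the 5′ end difference became 0.0908 for miR-100 and -0.161 for miR-125a. Depth limits the 3′ arm shares of miR-99b, miR-100 and miR-125a most, with 310 to 1362 reads of each in libraries other than control replicate 4.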
